A study of Mus musculus with 6 samples.

Results

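HSP90 and its co-chaperones were followed at the transcript level in the aorta of mice with and without miRNA-26b. The group holds 9 genes of the 55341 in the deposited count table: the cytosolic HSP90 paralogues Hsp90aa1 and Hsp90ab1 and the co-chaperones Stip1, Ahsa1, Chordc1, Fkbp4, Ptges3, Cdc37 and Stub1. They were taken by gene symbol, and the group was selected on the fold changes measured between these same libraries, so the differences between genotypes given for the 9 genes are a description without a test. All 9 genes were among the 16017 tested genes, which passed 1 CPM, the read count scaled to library size, in at least 2 libraries.

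RNA of 3 miRNA-26b-/- mice and 3 miRNA-26b+/+ mice was sequenced, with 1 library per mouse, named here KO1 to KO3 and WT1 to WT3. All mice were 8 weeks old, on chow diet and of the strain labelled C57BL/6NCrl. In the miRNA-26b-/- animals the miRNA hairpin, which lies in an intron of Ctdsp1, was removed from a floxed allele, made in embryonic stem cells of 129/Sv origin, by tamoxifen-activated CreERT2, and the Cre gene was then bred out. Whether the control line had received tamoxifen is not given in the sources used here. Libraries held 25706728 to 33345037 counts, with 17744 to 19287 genes detected. The labels name aortic endothelial cells, whereas the methods describe whole aortic arch and thoracic aorta, and the libraries held 14188 to 18289 CPM of the smooth muscle actin Acta2 against 174 to 716 CPM of the endothelial adhesion molecule Pecam1. Mir26b itself had 0 counts in every knock-out library and 0, 20 and 0 counts in WT1, WT2 and WT3, too few to check the genotypes, since small RNA was not sequenced. Over all genes tested, 492 (3.07%) were lower and 544 (3.4%) higher in miRNA-26b-/- aorta at an unadjusted p under 0.05, the median log2 fold change was 0.01, and 1 gene (0.00624%) had an adjusted p under 0.05 (edgeR's quasi-likelihood test, Benjamini-Hochberg).

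HSP90 is an abundant ATP-driven chaperone that holds kinases, steroid receptors and other signalling proteins in a form that can be activated. Clients reach it from HSP70 through the adaptor STIP1, also called HOP, or, for kinases, through CDC37, and AHSA1 and PTGES3 (p23) then speed up or slow down the ATPase cycle. In the vessel wall, endothelial nitric oxide synthase, AKT and the glucocorticoid receptor are known clients. Heat shock factor 1 raises transcription of the inducible chaperone genes, and HSP90 itself holds this factor inactive.

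The deleted miRNA and the proximal promoters of members are shown first, since they are the sequences through which a direct target or a shared heat shock element would be recognised. The mature 5p arm of miRNA-26b lies at chr1:74394324-74394344 on the forward strand of GRCm38.p6 (RefSeq), and its relative miRNA-26a-5p, encoded at 2 other loci, carries the same seed. Capitals mark the seed, bases 2 to 8.
mmu-miR-26b-5p: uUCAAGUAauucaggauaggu
mmu-miR-26a-5p: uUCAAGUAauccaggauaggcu
The 3p arm, which the knock-out also lacks, has another seed and was not searched for. In the 3′ untranslated region (UTR) of the longest coding transcript, 1 of the 9 members held a match of 7 or 8 bases to the 5p seed. Of 20616 genes with such a region, 16.7% held a match. The match lies in Chordc1, which encodes a zinc-binding co-chaperone also called morgana, and starts directly after base 208 of a 3′ UTR of 4521 bases. It is shown here with its 30-base surroundings and the matching letters in capitals.
Chordc1 site: tgttgcccttacACTTGAAgggagggaaag
No match to the 5p seed was found in the 3′ UTR of Hsp90aa1, Hsp90ab1, Stip1, Ahsa1, Fkbp4, Ptges3, Cdc37 or Stub1. Lengths of these 3′ UTRs ran from 216 bases in Ahsa1 to 6586 bases in Cdc37.

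Promoter windows from 250 bases before to 50 bases after the RefSeq start were matched for 7 of the 9 members, and Hsp90aa1 and Hsp90ab1 were not searched. They were searched on both strands for a heat shock element of 3 units (GAANNTTCNNGAA or TTCNNGAANNTTC), for its shorter form of 2 units (GAANNTTC or TTCNNGAA, which every longer element also holds) and for the CCAAT box (CCAAT or ATTGG). The element of 3 units was in 1 of the 7 windows, that of Chordc1, against 0.603% of 32851 windows of this length. It was also in 3 of 12 genes on the list of HSP70 and small heat shock partners (Hspd1, Hspe1 and Hsph1). For each motif, a gene was counted if any of its windows matched, whereas the percentages are shares of windows, so they are not the same measure. On this list, Hspd1 and Hspe1 encode mitochondrial chaperones, not an HSP70 or a small heat shock protein. The form of 2 units was in 4 of 7 members (Cdc37, Chordc1, Fkbp4 and Stub1), 9 of 12 partners and 15.1% of all windows. A CCAAT box was in 3 of 7 members (Cdc37, Fkbp4 and Stip1), 6 of 12 partners and 37.4% of all windows. The windows of Chordc1, Stip1 and Fkbp4 are shown because they hold the longest element, the most CCAAT boxes and, for Fkbp4, both short motifs. Capitals mark the matches, and the positions on GRCm38.p6 are chr9:18292017-18292316 (forward) for Chordc1, chr19:7039977-7040276 (reverse) for Stip1 and chr6:128438607-128438906 (reverse) for Fkbp4.
Chordc1: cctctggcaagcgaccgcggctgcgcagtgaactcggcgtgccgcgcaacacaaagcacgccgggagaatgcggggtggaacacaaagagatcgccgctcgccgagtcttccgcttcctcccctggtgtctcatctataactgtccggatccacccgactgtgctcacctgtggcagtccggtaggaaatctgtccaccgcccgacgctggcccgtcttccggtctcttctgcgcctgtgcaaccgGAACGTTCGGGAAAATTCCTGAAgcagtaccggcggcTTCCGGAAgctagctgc
Stip1: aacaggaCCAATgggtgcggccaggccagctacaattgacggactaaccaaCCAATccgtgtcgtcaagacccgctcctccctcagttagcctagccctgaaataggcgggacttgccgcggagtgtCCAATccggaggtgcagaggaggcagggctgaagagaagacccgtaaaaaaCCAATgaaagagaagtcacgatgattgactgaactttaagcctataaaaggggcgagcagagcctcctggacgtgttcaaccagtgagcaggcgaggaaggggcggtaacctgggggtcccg
Fkbp4: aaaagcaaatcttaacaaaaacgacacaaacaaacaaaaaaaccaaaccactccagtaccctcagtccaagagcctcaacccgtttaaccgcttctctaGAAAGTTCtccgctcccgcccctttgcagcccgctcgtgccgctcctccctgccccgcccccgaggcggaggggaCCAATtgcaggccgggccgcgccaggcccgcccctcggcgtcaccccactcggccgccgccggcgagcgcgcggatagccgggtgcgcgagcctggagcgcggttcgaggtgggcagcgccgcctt
In Chordc1 overlapping units begin 4 bases before the start, whereas in Stip1 4 CCAAT boxes lie between 243 and 72 bases before it. A match is a description of the letters and not evidence of binding.

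**Figure D1:**
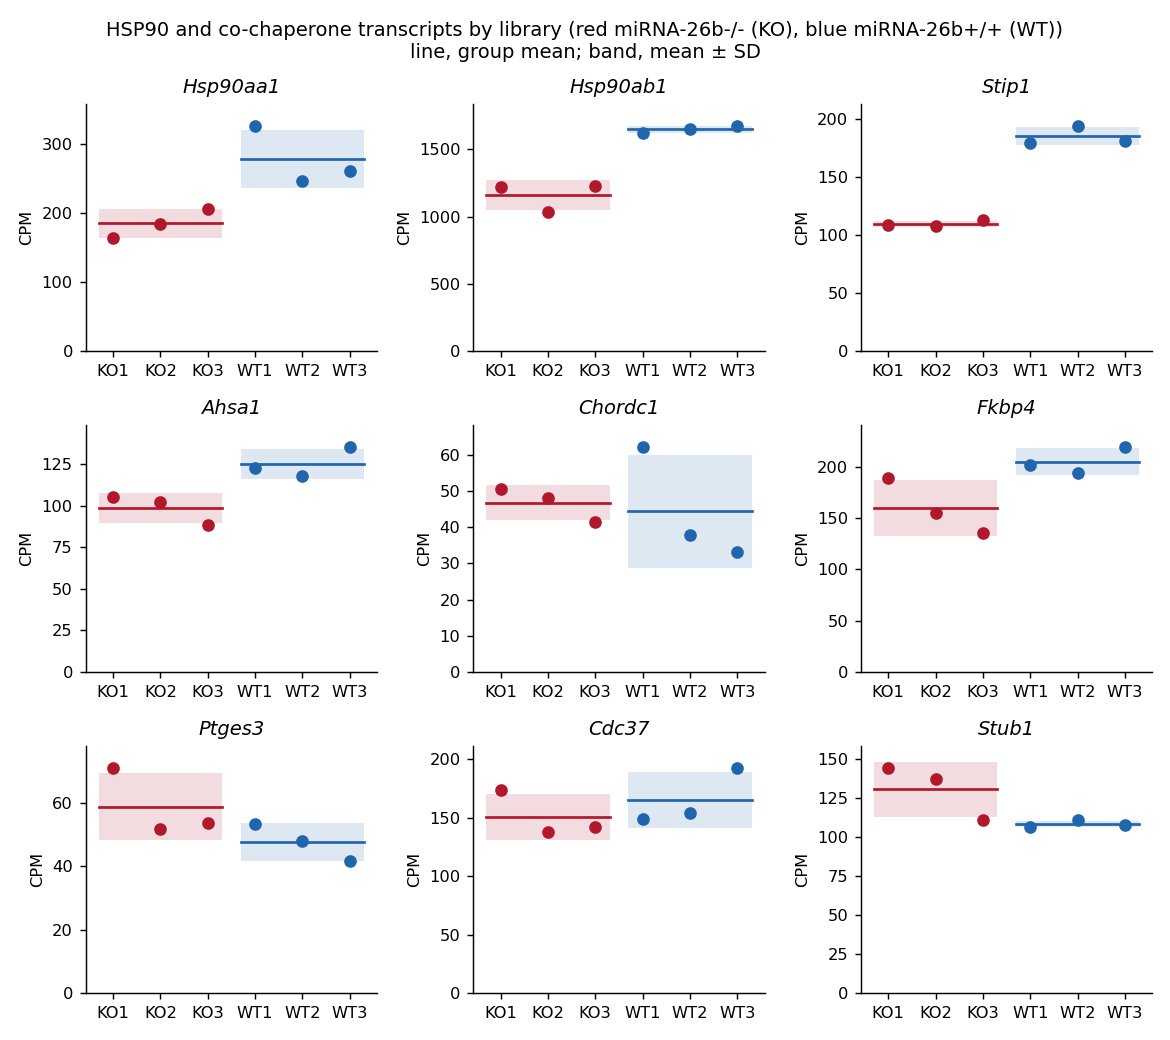
Normalised level (CPM) of the 9 members in each library, miRNA-26b-/- (KO1 to KO3, red) and miRNA-26b+/+ (WT1 to WT3, blue), with the group mean as a line and the mean ± SD as a band. Points of Hsp90aa1, Hsp90ab1, Stip1, Ahsa1 and Fkbp4 do not overlap between genotypes, whereas those of Chordc1, Ptges3, Cdc37 and Stub1 do.

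Both cytosolic HSP90 transcripts were measured at lower levels in every miRNA-26b-/- library than in any miRNA-26b+/+ library. Hsp90ab1 (ENSMUSG00000023944, chr17:45567775-45573271, reverse strand) encodes the constitutive paralogue and was the most abundant member. It was at 1220 CPM in KO1, 1033 in KO2 and 1230 in KO3, and at 1623, 1655 and 1673 CPM in WT1, WT2 and WT3. The 3 wild-type values lay within a coefficient of variation of 1.53%, against 9.59% in the knock-out, where KO2 was lowest. The log2 fold change was -0.51 ± 0.12 (SE, n = 3 and 3), a ratio of 0.704. In bulk tissue, fewer cells of a type and less RNA per cell cannot be told apart.

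Hsp90aa1 (ENSMUSG00000021270, chr12:110690605-110702728, reverse strand) encodes the stress-inducible paralogue. Its level was 164 CPM in KO1, 185 in KO2 and 207 in KO3, and 326 CPM in WT1, 247 in WT2 and 262 in WT3. WT1 stood above the other wild-type libraries, and the highest knock-out value still lay 40.2 CPM under the lowest wild-type value. The log2 fold change was -0.59 ± 0.16 (SE), and -0.46 without WT1. The coding sequences of both paralogues are identical at 76.2% of 2172 aligned bases, and 58.5% of the 50-base stretches of the Hsp90aa1 transcript also occur in transcripts of 4 other genes, most of them in Gm12346, against 4.5% for Hsp90ab1. Reads that map to several places were not counted, so the level of Hsp90aa1 may be understated relative to Hsp90ab1. The ratio of Hsp90ab1 to Hsp90aa1 counts was 5.59 to 7.42 in the knock-out and 4.97 to 6.71 in the wild type, and these ranges overlapped.

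Of the 7 member co-chaperones, Stip1 had the largest difference between the groups. Stip1 (ENSMUSG00000024966, chr19:7020702-7039967, reverse strand) encodes the adaptor that binds HSP70 and HSP90 at the same time. It was at 109 CPM in KO1, 108 in KO2 and 113 in KO3, and at 180.0, 194 and 181 CPM in WT1, WT2 and WT3. Values within a genotype lay close together, with a coefficient of variation of 2.45% and 4.2%, and the gap of 67.1 CPM between the groups made up most of its whole range of 86.2 CPM. The log2 fold change was -0.75 ± 0.14 (SE), a ratio of 0.593. Relative to HSP90, Stip1 had 78.5 to 88.6 reads per 1000 reads of Hsp90aa1 and Hsp90ab1 in the knock-out and 92.3 to 102 in the wild type. The ranges did not overlap, with KO2 at 88.6 close to WT1 at 92.3. The genotype difference that selected the members enters this ratio, and Stip1 is singled out here for the largest difference, so it is a description only.

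Ahsa1 (ENSMUSG00000021037, chr12:87266479-87273998, forward strand) encodes the activator of the HSP90 ATPase. Its level was 105 CPM in KO1, 102 in KO2 and 88.3 in KO3, against 122, 118 and 135 CPM in WT1 to WT3. The groups were apart by 12.7 CPM, with KO3 lowest and WT3 highest, and the log2 fold change was -0.35 ± 0.16 (SE). Of the Ahsa1 transcript, 14.6% of 50-base stretches also occur in transcripts of 2 other genes. Fkbp4 (ENSMUSG00000030357, chr6:128429735-128438677, reverse strand) encodes FKBP52, an immunophilin of steroid receptor complexes. It was at 189 CPM in KO1, 155 in KO2 and 135 in KO3, and at 201, 194 and 219 CPM in WT1 to WT3. KO1 came within 4.55 CPM of WT2, so the separation of this gene is the narrowest of the 5 that did not overlap. The log2 fold change was -0.36 ± 0.16 (SE), and it ran from -0.5 without KO1 to -0.25 without KO3.

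The remaining 4 co-chaperones overlapped between genotypes. Cdc37 (ENSMUSG00000019471, chr9:21133222-21149982, reverse strand), which brings kinases to HSP90, was at 174, 138 and 142 CPM in KO1 to KO3 and at 149, 154 and 193 CPM in WT1 to WT3. Its highest values came from KO1 and WT3, and the log2 fold change of -0.13 ± 0.16 (SE) was smaller than its error. Ptges3 (ENSMUSG00000071072, chr10:128058954-128077272, forward strand), which encodes p23, was at 70.9, 51.7 and 53.6 CPM in the knock-out and at 53.4, 48.0 and 41.5 CPM in the wild type. KO1 alone lay clearly above the others, and the log2 fold change was 0.30 ± 0.20 (SE), or 0.14 without KO1. Of the Ptges3 transcript, 22.2% of 50-base stretches are shared with other genes, almost all with the pseudogene Ptges3-ps.

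Chordc1 (ENSMUSG00000001774, chr9:18292125-18317442, forward strand) was the most variable member in the wild type, with a coefficient of variation of 35.2% against 10.4% in the knock-out. It was at 50.6, 48.1 and 41.3 CPM in KO1 to KO3, and at 62.1 CPM in WT1 but 37.8 in WT2 and 33.0 in WT3. WT1 was thus above and WT2 and WT3 below all knock-out libraries, and the log2 fold change of 0.07 ± 0.24 (SE) became 0.40 without WT1. This gene holds both the seed match and the long heat shock element shown above. Stub1 (ENSMUSG00000039615, chr17:25830505-25833404, reverse strand) encodes CHIP, a ubiquitin ligase that marks HSP70 and HSP90 clients for degradation. It was at 144 CPM in KO1, 137 in KO2 and 111 in KO3 and at 107, 111 and 108 CPM in WT1 to WT3. KO3 lay within the wild-type range and the other knock-out libraries above it, and the log2 fold change was 0.27 ± 0.16 (SE). Of the exonic bases of Stub1, 42.3% overlap Jmjd8 on the opposite strand, and as counting ignored strand, reads of these genes cannot be told apart.

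Counted together, 5 of the 9 members lay lower in all miRNA-26b-/- libraries than in any miRNA-26b+/+ library, beside 5.88% of all genes tested, and 0 of 9 lay higher, beside 5.65%. The same 5 had an unadjusted p under 0.05, beside the 3.07% named above, and 0 of 9 had an adjusted p under 0.05 in edgeR's quasi-likelihood test, 0 of 9 in limma voom, beside 0.0187% of all genes in that fit, and 2 of 9, Stip1 and Hsp90ab1, in DESeq2, beside 0.358%. Ahsa1 and Fkbp4 kept an unadjusted p under 0.05 without KO1 but lost it on leaving out any other single library, with p up to 0.118 (without WT3) and 0.117 (without KO3) in edgeR's test. Among the 4292 genes at least as abundant as Chordc1, the member with the lowest mean CPM, 7.34% lay lower and 4.85% higher without overlap. Of these 4292 genes, 4.22% were lower at an unadjusted p under 0.05 in edgeR's test. Since the members were selected with these differences known, nothing is read from the counts. The median log2 fold change of the members was -0.35, beside 0.01 over all genes tested. The 9 members together made up 0.197% to 0.222% of the counts in the knock-out and 0.272% to 0.287% in the wild type. Hsp90aa1 and Hsp90ab1 held 62.2% to 67.8% of the counts of the 9 members in the knock-out and 68.0% to 69.0% in the wild type.

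**Figure D2:**
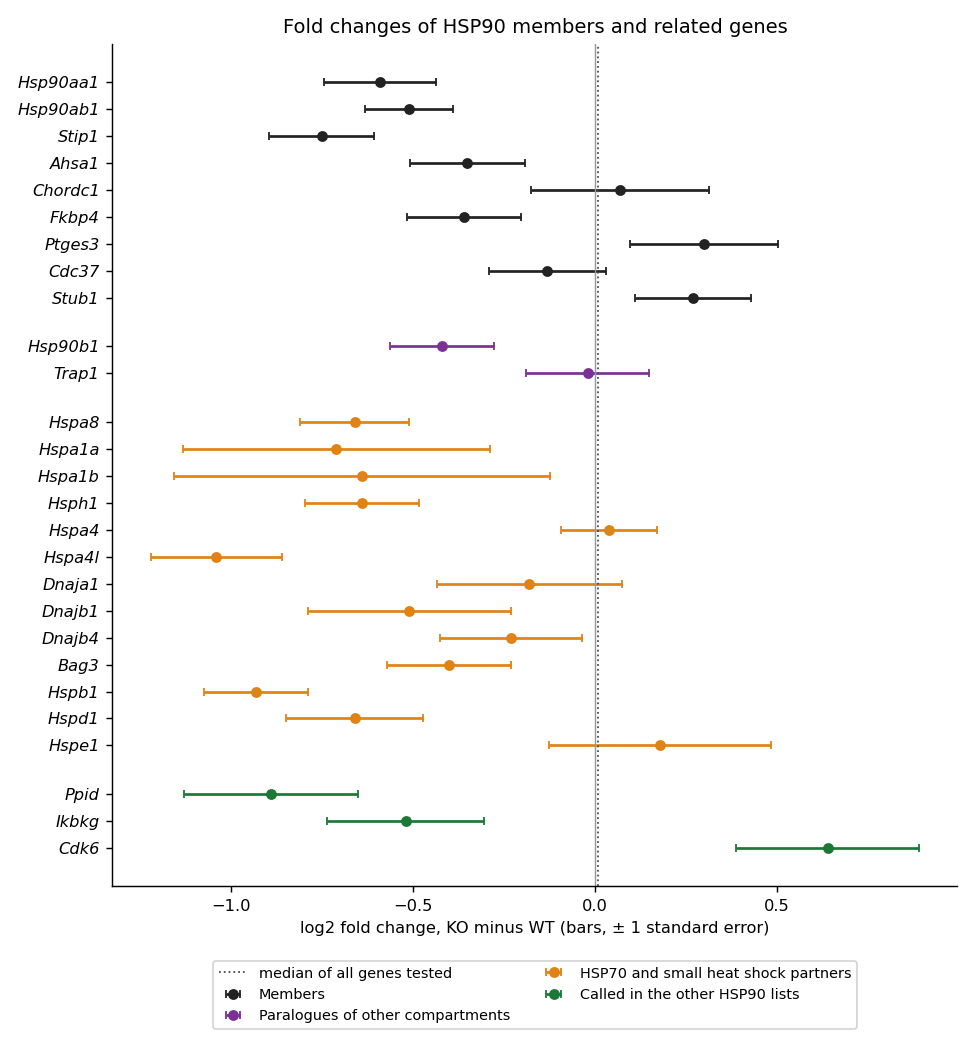
Log2 fold change (miRNA-26b-/- minus miRNA-26b+/+) with ± 1 standard error for the members, the HSP90 paralogues of other compartments, the HSP70 and small heat shock partners and 3 genes of the other HSP90 lists, with the median of all genes tested as a dotted line. Members range from -0.75 (Stip1) to 0.30 (Ptges3), and the partners from -1.04 (Hspa4l) to 0.18 (Hspe1).

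Levels of the members relative to each other were not used to select them. They were compared within each library as CPM per kb of annotated exon, with the genotypes pooled. The genotype differences that selected the members also enter these ratios. Hsp90ab1 led at 469 ± 92.5 CPM per kb (SD, n = 6), followed by Stip1 at 70.0 ± 19.7, Fkbp4 at 65.2 ± 11.2, Hsp90aa1 at 59.0 ± 15.03 and Stub1 at 46.7 ± 6.49 CPM per kb. Ahsa1 at 25.5 ± 3.81, Ptges3 at 24.0 ± 4.43 and Cdc37 at 19.3 ± 2.57 CPM per kb came next, and Chordc1 was last at 6.07 ± 1.39 CPM per kb. Of the 8 neighbouring pairs in this order, 3 kept their order in 6 of 6 libraries: Hsp90ab1 above Stip1 by 2.77 ± 0.16 (log2 ratio, SD), Stub1 above Ahsa1 by 0.87 ± 0.34 and Cdc37 above Chordc1 by 1.69 ± 0.44. For each of these the exact two-sided sign-flip permutation test gave p = 0.0312, the smallest that 6 libraries allow. The adjusted p was 0.0833 over the 8 pairs, so 0 of 8 pairs passed after adjustment. The pairs were neighbours in an order taken from these same libraries, and most would have to reach the smallest p before any could pass. The test therefore cannot decide the order. Stip1 and Fkbp4, Fkbp4 and Hsp90aa1, Hsp90aa1 and Stub1, and Ahsa1 and Ptges3 kept their order in 4 of 6 libraries and did not differ beyond their spread, and Ptges3 lay above Cdc37 in 5 of 6.

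The middle of the order depended on the length used. Per kb of coding sequence, Hsp90ab1 remained highest at 647 ± 128 and Chordc1 lowest at 45.8 ± 10.5 CPM per kb, but Cdc37 moved from the eighth to the second place at 139 ± 18.5 CPM per kb and Stip1 from the second to the eighth at 90.5 ± 25.5. The other members then lay between 105 and 133 CPM per kb. Cdc37 has 8194 exonic bases in the annotation for a coding sequence of 1137 bases, whereas Stip1 has 2108 for 1629.

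**Figure D3:**
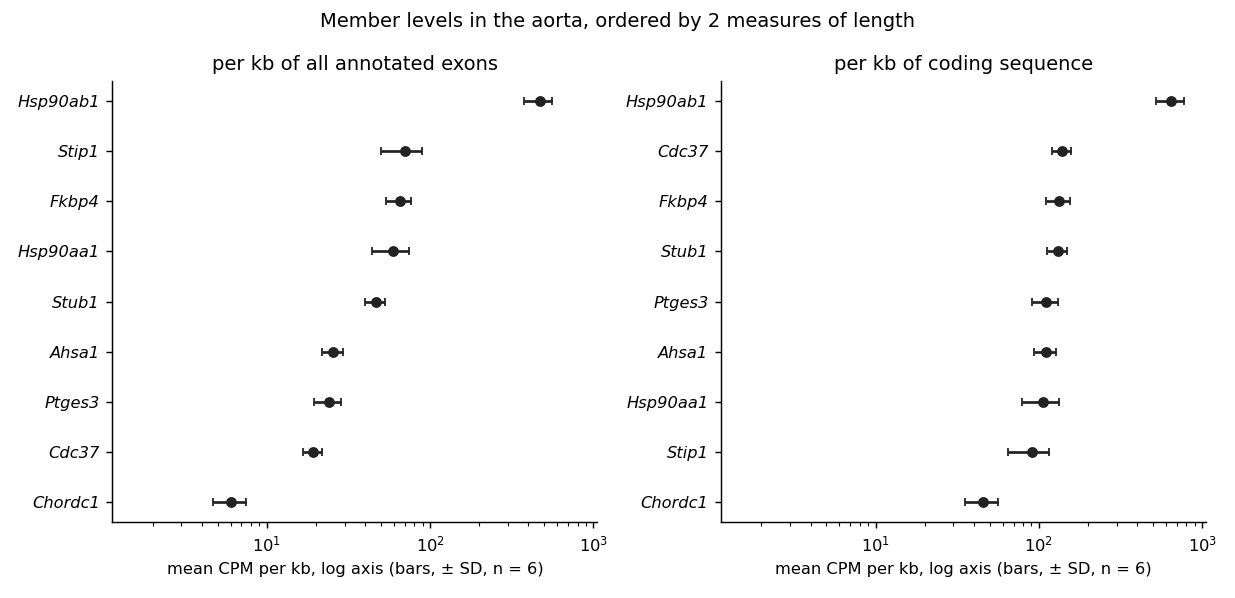
Mean CPM per kb over the 6 libraries (log axis, bars ± SD) of each member, divided by all annotated exonic bases (left) and by coding bases (right), each ordered from the highest. Hsp90ab1 is highest and Chordc1 lowest in both, and Cdc37 and Stip1 change places.

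The HSP90 paralogues outside the cytosol were split. Hsp90b1, the paralogue of the endoplasmic reticulum, was at 609, 484 and 691 CPM in KO1 to KO3 and at 756, 804 and 828 CPM in WT1 to WT3. Its groups did not overlap, and the log2 fold change was -0.42 ± 0.14 (SE), with an unadjusted p of 0.00996 and an adjusted p of 0.736 in edgeR's quasi-likelihood test. Trap1, the mitochondrial paralogue, was at 65.2 to 73.7 CPM in the knock-out and 68.0 to 71.9 CPM in the wild type, with a log2 fold change of -0.02 ± 0.17 (SE).

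Other co-chaperones were listed as 29 genes, of which 28 were tested. At an unadjusted p under 0.05, 1 of 28 was lower and 0 of 28 higher, beside 3.07% and 3.4% of all genes tested. The median log2 fold change was -0.01. The gene past this threshold was Ppid, which encodes the immunophilin cyclophilin 40. Its level was 28.6, 17.7 and 26.3 CPM in the knock-out and 44.5, 47.7 and 42.0 CPM in the wild type, with no overlap and a log2 fold change of -0.89 ± 0.24 (SE), adjusted p = 0.731 by edgeR. Among the most abundant per length were Nudc at 41.8 and Fkbp8 at 31.5 CPM per kb, with log2 fold changes of -0.13 and 0.13. Fkbp5, the glucocorticoid-induced relative of Fkbp4, ran from 25.6 CPM in WT1 to 91.6 CPM in WT3, with the knock-out libraries between 38.3 and 50.3 CPM.

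Transcripts of HSP90 clients showed no common direction. Of 10 receptors and transcription factors, 0 were lower and 0 higher at an unadjusted p under 0.05 (edgeR), beside 3.07% and 3.4% of all genes tested. The median log2 fold change of these 10 was 0.00. Hif1a at 29.2, the glucocorticoid receptor Nr3c1 at 24.8 and Stat3 at 14.97 CPM per kb were the most abundant per length, with log2 fold changes of -0.15, 0.02 and -0.27. Of 21 kinases and enzymes, 1 was lower and 1 higher at an unadjusted p under 0.05, beside 3.07% and 3.4% of all genes tested. Their median log2 fold change was 0.00. Ikbkg, the regulatory subunit of the IκB kinase, was at 28.5 to 38.9 CPM in the knock-out and 42.2 to 55.4 CPM in the wild type (log2 fold change -0.52 ± 0.22, SE), and the cell cycle kinase Cdk6 was at 25.6 to 36.5 CPM in the knock-out and 19.03 to 21.3 CPM in the wild type (0.64 ± 0.25). Their adjusted p was 0.736 each in edgeR's test. Akt1 at 54.6, Stk11 at 25.3 and Cdk4 at 24.5 CPM per kb were the most abundant of this list, with log2 fold changes of 0.03, 0.21 and 0.22. Nos3, the endothelial nitric oxide synthase, was at 23.6 and 25.2 CPM in KO1 and KO2 but at 91.6 CPM in KO3, against 60.7 to 89.0 CPM in the wild type.

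The HSP70 and small heat shock partners shared the direction of the HSP90 paralogues for part of their list. Of 13 genes, all tested, 6 were lower and 0 higher at an unadjusted p under 0.05, beside 3.07% and 3.4% of all genes tested. The median log2 fold change was -0.64. As the list was chosen with earlier results of these data known, nothing is read from these counts and p-values. Hspa8, the constitutive HSP70, was at 582 to 892 CPM in the knock-out and 1137 to 1237 CPM in the wild type, and the small heat shock protein Hspb1 was at 147 to 176 CPM and 289 to 335 CPM, with the smallest adjusted p of the list at 0.0822 (edgeR). Hspa4l, Hsph1, Bag3 and the mitochondrial chaperone gene Hspd1 were the other 4. Hspa1a and Hspa1b, the strictly stress-inducible HSP70 pair, overlapped between genotypes and ranged from 46.3 CPM in KO2 to 216 CPM in WT1 and from 45.3 CPM in KO1 to 265 CPM in WT1. Heat shock factor Hsf1 was at 41.2 to 57.8 CPM in the knock-out and 38.8 to 49.2 CPM in the wild type, a log2 fold change of 0.16 ± 0.22 (SE). Of 3 heat shock factors, 0 were lower and 0 higher at an unadjusted p under 0.05 (edgeR), beside 3.07% and 3.4% of all genes tested.

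**Figure D4:**
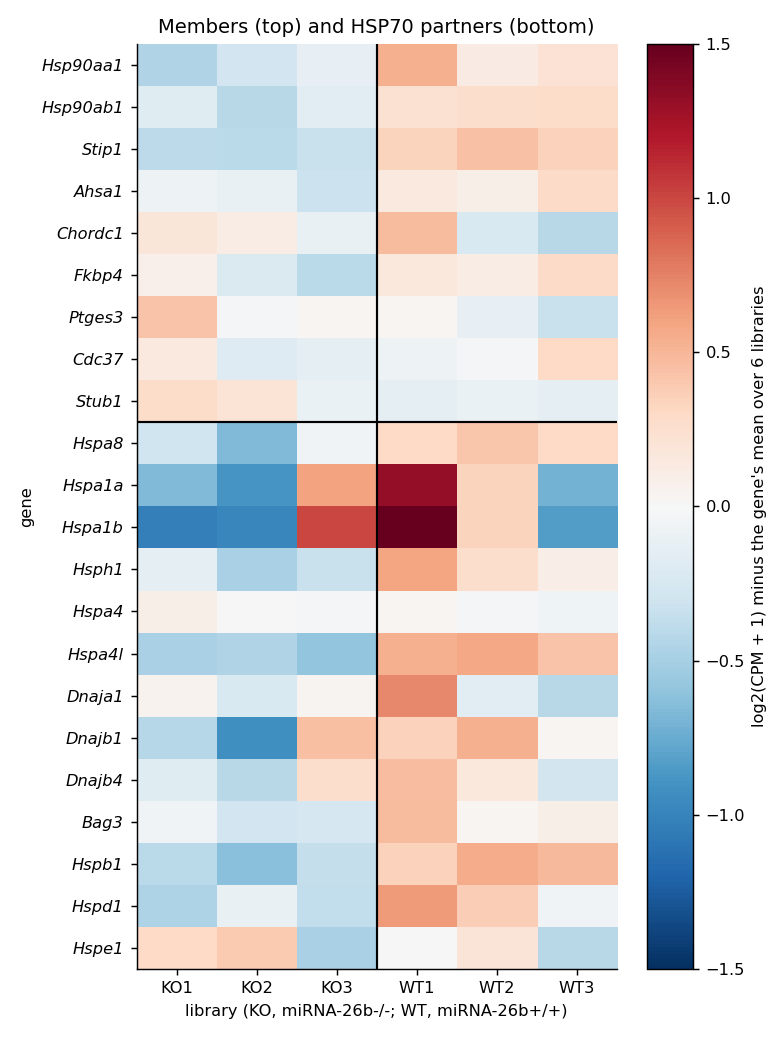
Deviation of log2(CPM + 1) from each gene's mean over the 6 libraries for the 9 members (top) and 13 HSP70 and small heat shock partners (bottom), red above and blue below the mean. Stip1 and Hsp90ab1 divide by genotype, whereas Hspa1a and Hspa1b are highest in WT1 and next in KO3.

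The wild-type libraries were not alike in these genes. WT1 held the highest level of 7 of the 13 partners (Hspa1a, Hspa1b, Hsph1, Dnaja1, Dnajb4, Bag3 and Hspd1) and of 2 of the 9 members (Hsp90aa1 and Chordc1), while 13.2% of all genes tested were highest in this library. Hsp90ab1, Ahsa1, Fkbp4 and Cdc37 were highest in WT3 and Stip1 in WT2. Among the knock-out libraries, Ptges3 and Stub1 were highest in KO1, and 5 of the 9 members were above their own mean there, against 2 in KO2 and 1 in KO3.

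Genes with the pattern most like the mean of the members were sought over the 6 libraries. Pearson's r with the mean centred log2 CPM of the 9 members was taken for 9757 genes with a mean of at least 10 CPM. Several members do not follow this mean, which was 0.00 in KO1, where 5 of the 9 members were above their own mean. In KO1 Ptges3 was at 0.43 and Stub1 at 0.28, but Hsp90aa1 at -0.46 and Stip1 at -0.39. The closest were Nol8 (r = 0.997), Rrp9 (0.988), Gmeb2 (0.985), Plpbp (0.984), Clns1a (0.983), Spg20 (0.981), Prpf38a (0.978), Ssr2 (0.975), Abra (0.974) and Acyp2 (0.969). The most opposite were Mfap4 (r = -0.992), Dcaf10 (-0.991), Sc5d (-0.98), Araf and the elastin gene Eln (both -0.975). Of the heat shock partners, Hsph1 and Bag3 (both 0.94) came closest to this mean, while r was lower for Hspa1a (0.35) and Hspe1 (0.04). The libraries share depth and genotype in all these values. With 6 points an r over 0.9 was found for 83 genes, or 0.851% of those compared. For 58 genes r lay beyond this bound in the opposite direction. The genotype difference that selected the members enters their mean, so nothing is read from the genes named.

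Cell type markers moved between libraries beside these results. The summed level of 8 endothelial markers was 449 CPM in KO1 and 470 CPM in KO2 but 1692 CPM in KO3, against 1186 to 1630 CPM in the wild type. Of these 8, 1 (Tek) was lower at an unadjusted p under 0.05 (edgeR), beside 3.07% of all genes tested. The sum in KO3 lay above every wild-type library, whereas the markers Kdr (8.82 against 19.9 to 31.7 CPM) and Egfl7 (31.2 against 33.4 to 49.3 CPM) were below the wild-type range there. The sum of 8 Schwann cell markers was 372 to 567 CPM in the knock-out and 230 to 313 CPM in the wild type, and 6 of the 7 tested were higher at an unadjusted p under 0.05, with Mag at 0 counts in 5 of the 6 libraries. At the same threshold 6 of 10 sympathetic neuron markers, 7 of 8 skeletal muscle markers and 0 of 6 tested cardiac muscle markers were higher, beside 3.4% of all genes tested. The neuron sum was 457 CPM in KO2, but 95.4 in KO1 and 69.0 in KO3, both under the 98.2 to 163 CPM of the wild type. For skeletal muscle it was 38.9, 95.5 and 8.39 CPM in KO1 to KO3 and 3.24 to 11.9 CPM in the wild type. The cardiac muscle sum reached 375 CPM in KO2 and 322 CPM in WT2. The 7 smooth muscle markers summed to 31297 to 39748 CPM in the knock-out and 34234 to 42167 CPM in the wild type. In edgeR's test 0 of 7 were past the threshold, beside 3.07% lower and 3.4% higher among all genes tested. Without KO2 and WT2, the median log2 fold change of the members was -0.37, and Stip1 and Hsp90ab1 were at -0.71 and -0.43. The part of the endothelial, neural and muscle markers in the members' values was not tested.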

How the data were processed

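Aortic RNA of 3 miRNA-26b-/- and 3 miRNA-26b+/+ mice was analysed as 1 library per mouse, grouped by the genotype labels. STAR was used by the authors for alignment to mm10, and they deposited raw counts per gene symbol, made with featureCounts 1.6.4 over the exons of GENCODE annotation, without strand, without reads that map to several places and with a read counted for each gene it overlaps. The deposited table of normalised values with the authors' own fold changes and p-values was not used.

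Genes were kept if their counts summed to 2 or more and passed 1 CPM in 2 or more libraries, which left 16017. After TMM normalisation the genotypes were compared by edgeR's quasi-likelihood test (version 4.0.16, R 4.3.3) with Benjamini-Hochberg adjustment over all genes kept. Prior counts were 0.125 in fold changes and 2 in log2 CPM. Standard errors were derived from the same fit. The procedure was tested on simulated counts. Depth was 25706728 to 33345037 counts per library and members had 999 to 50622 counts each. An exact permutation test of 3 against 3 libraries cannot pass the 0.05 threshold, and nothing in the labels beyond 1 library per mouse says how the mice were related, so p-values measure the spread between these samples.

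The members and lists were chosen with earlier results of these data known. The named genes are the 9 members, in each other HSP90 list the genes with an unadjusted p under 0.05 and the 3 most abundant per length, genes of the HSP70, heat shock factor and cold-inducible lists, and the 10 genes most and 5 least like the members over the libraries. The values of 1 gene that this rule names are not reported here. Fkbp5, Nos3 and the marker genes were named after their values were seen. Alternatives were other size factors, filters, DESeq2 1.42.0, limma voom 3.58.1, leaving out each library and leaving out KO2 and WT2, which hold the most cardiac markers. The earlier quasi-likelihood method of edgeR was added after seeing the data. Sequences are from RefSeq, and 3′ UTRs and positions from GENCODE on GRCm38.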

Additional observations from a re-analysis of the deposited data

How the results depend on the processing

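No paired analysis was possible because the labels give no replicate numbers that link knock-out and wild-type mice. Over 14 alternatives, Stip1 (log2 fold change -0.78 to -0.71), Hsp90aa1 (-0.67 to -0.46) and Hsp90ab1 (-0.55 to -0.43) were lower with an unadjusted p under 0.05 in all 14, whereas Fkbp4 (-0.50 to -0.25) was past it in 8 and Ahsa1 (-0.41 to -0.27) in 7. Without single libraries the median of the members ran from -0.40 (without KO1) to -0.25 (without KO3), and 3 to 5 members had an unadjusted p under 0.05. Members with an adjusted p under 0.05 numbered 2 in DESeq2 and 0 to 1 without single libraries, the 1 being Stip1 without KO3. Stub1 was past an unadjusted p of 0.05 only without KO3, at 0.38. Chordc1, at 0.07 in the main test, was at 0.40 without WT1, -0.02 without WT2, -0.10 without WT3 and -0.05 without KO2 and WT2.

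Across all genes, counts at an unadjusted p under 0.05 ran from 686 (without WT3) to 1692 (without KO3), with 324 (without WT2) to 904 (without KO3) lower and 349 (without WT3) to 788 (without KO3) higher, and 0 to 82 after adjustment. Without KO2 and WT2 there were 607, of which 317 were lower and 290 higher, 0 after adjustment, and 3 members past the unadjusted threshold. After adjustment DESeq2 gave 57 genes, limma voom 3 and the earlier quasi-likelihood method of edgeR 0, against 1 in the main test. The cause of these shifts was not tested. The number of neighbouring pairs of members apart after adjustment was 0 under every length and library choice tried, where with 5 or 4 libraries no pair could pass. Stub1, Hsp90aa1, Ptges3 and Ahsa1 share sequence with other genes, which limits their levels. For Stip1 5.6% and for Hsp90ab1 4.5% of 50-base stretches are shared.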

Other observations

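Cold-inducible RNA-binding proteins, whose transcripts are known to move against heat shock genes with temperature, were at higher levels in the knock-out libraries. Cirbp was at 30.9, 48.3 and 31.2 CPM in KO1 to KO3 and at 16.3, 18.1 and 18.7 CPM in WT1 to WT3, a log2 fold change of 1.06 ± 0.27 (SE). Rbm3 was at 37.6, 36.3 and 33.0 CPM against 26.6, 28.6 and 19.1 CPM, a log2 fold change of 0.53 ± 0.24 (SE). Neither gene overlapped between genotypes, beside 5.65% of all genes tested that lay higher without overlap in the knock-out. Their adjusted p was 0.647 and 0.755 in edgeR's quasi-likelihood test. This list was chosen with earlier results of these data known. Over the 6 libraries Pearson's r with the members' mean was -0.86 for Cirbp and -0.61 for Rbm3. The genotype difference that selected the members enters both values. A part of temperature in these levels was not tested.

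Immediate early genes are induced within minutes of handling or stress. At an unadjusted p under 0.05, 2 of 12 were lower and 0 of 12 higher, beside 3.07% and 3.4% of all genes tested. The median log2 fold change of these 12 was -0.06. Junb was at 26.4 CPM in KO1, 27.6 in KO2 and 58.2 in KO3, against 52.4 to 85.2 CPM in the wild type, so KO3 lay within the wild-type range. Egr2 was at 1.34 to 5.56 CPM in the knock-out and 5.44 to 12.7 CPM in the wild type.

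The sums of the other marker lists overlapped between genotypes. They were 7758 to 14773 CPM in the knock-out and 8183 to 10029.8 CPM in the wild type for fibroblasts, 544 to 1867 and 467 to 1332 CPM for adipocytes, 180.0 to 586 and 323 to 384 CPM for macrophages and 85.6 to 929 and 354 to 633 CPM for erythroid cells, while lymphocyte markers stayed at or below 6.05 CPM in every library.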
